A study of Gallus gallus with 12 samples.

Results

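Gene expression in whole chick lung at embryonic day (E)18 was compared with that at E15. The comparison rests on 6 of the 12 arrays of the series, 3 at E18 and 3 at E15, chosen by the stage in the sample labels, and on all 21390 transcripts of the array. The other 6 arrays, 3 at E16 and 3 at E14, share no RNA sample with these and gave a second change to set beside the first. All embryos were White Leghorn chicks from timed eggs, and the lungs were taken without any treatment. Each array carried labelled cDNA made from the total RNA of 1 sample. The labels do not say whether a sample was 1 embryo or a pool, so the p-values measure the spread between samples of a stage. In the main fit this spread is pooled over all 12 arrays, so that of E14 and E16 enters it too.

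The embryonic bird lung first lays down its conducting airways, the secondary bronchi and parabronchi. From the walls of the parabronchi it then forms atria, infundibula and finally the air capillaries, which are wrapped by blood capillaries to make the blood–gas barrier. Type IV collagen is the main collagen of the basement membrane that epithelium and endothelium share in this barrier. The study places its series, from E14 to E18, in the middle to late part of the formation of this barrier, so E15 and E18 both lie within it. The deposited values are listed by Ensembl transcript identifier without gene names, and the gene table used here does not carry these identifiers, so that pathways and cell type markers of the lung were not scored. In whole-lung RNA, fewer cells of a type and less RNA per cell cannot be told apart.

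The arrays of both stages differed among themselves before any comparison was made. The standard deviation (SD) of the log2 values over all transcripts was 2.58, 2.38 and 2.22 on E18 replicates 1, 2 and 3, against 2.60, 2.62 and 2.44 on E15 replicates 1, 2 and 3. On E18 replicates 2 and 3 and on E15 replicate 3, dim transcripts read higher and transcripts of middle level read lower than at E14. Sorted by mean level into 20 bins, the median shift against E14 ran from 1.75 to -0.96 on E18 replicate 3, from 1.01 to -0.53 on E18 replicate 2 and from 0.64 to -0.44 on E15 replicate 3. E18 replicate 1 stayed between 0.16 and -0.09, E15 replicate 1 between 0.02 and -0.04, and E15 replicate 2 between 0.04 and -0.02. Pairs of E18 arrays correlated at 0.741 to 0.909 over the transcripts, given as a description, and pairs of E15 arrays at 0.92 to 0.987. Pairs of an E18 and an E15 array correlated at 0.688 to 0.964. E18 replicate 1 had a mean correlation of 0.953 with the arrays of E15 and of 0.82 with the others of E18. For E18 replicates 2 and 3 the means were 0.897 and 0.751 with E15, and 0.904 and 0.825 with E18. A transcript typically had an SD of 0.528 over the arrays of E18 and of 0.216 over those of E15 (medians). The number of calls, the shares of equal sign and the changes of the named transcripts are given with and without the arrays of low SD. The classes of level and size, the counts near the background and the order of the stages were not recomputed without them.

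**Figure D1:**
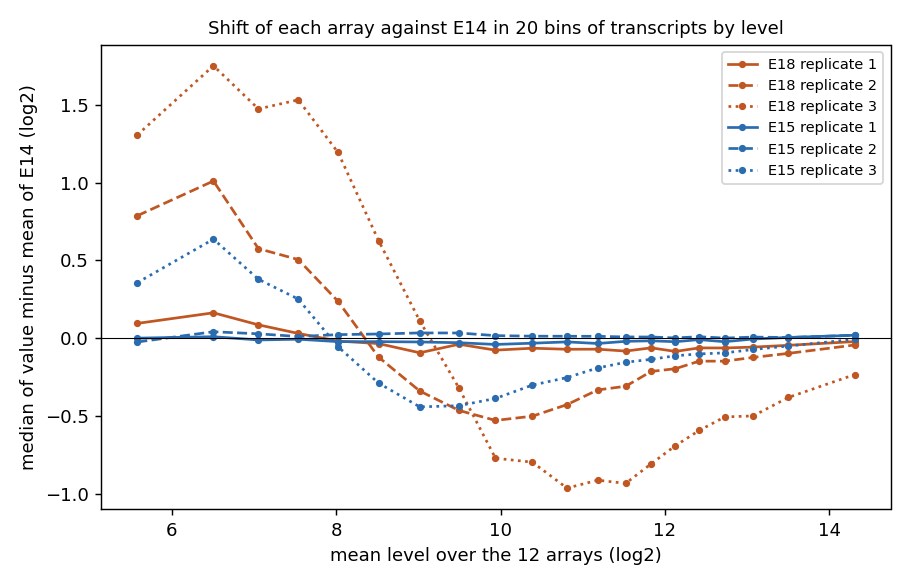
The median difference of each array of E18 (orange) and E15 (blue) from the mean of E14, in log2 units, is drawn against the mean level of 20 bins of transcripts. E18 replicates 3 and 2 and E15 replicate 3 lie above 0 for dim transcripts and below 0 from the middle levels on, while the other 3 arrays stay between -0.09 and 0.16.

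Between the 2 stages 1343 of the 21390 transcripts changed, 6.28% of those tested, at an adjusted p of at most 0.05 in limma with 1 mean for each stage over all 12 arrays. At E18 595 were higher (2.78% of all) and 748 were lower (3.5%). The median change of the transcripts that rose was 1.20 log2 units, and of those that fell it was -0.99. Over all transcripts the median was -0.12, and 51.3% of them differed by less than 0.5 log2 units. A change of at least 1 log2 unit, a doubling or halving, was found for 752 of the called transcripts (3.52% of all), 380 higher and 372 lower. Called or not, 21.9% of all transcripts differed by at least 1 log2 unit, so most differences of this size were not called. Among the called transcripts, a change of at least 2 was found for 85 that rose and 55 that fell, and of at least 3 for 16 that rose and 12 that fell. The smallest change called was 0.43 for a rise and -0.44 for a fall.

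The transcripts that rose had similar medians on the 3 arrays of E18. Their median distance from the mean of E15 was 1.11, 1.16 and 1.17 log2 units on E18 replicates 1, 2 and 3. The quartiles were 0.81 and 1.62 on replicate 1, 0.84 and 1.63 on replicate 2, and 0.75 and 1.89 on replicate 3. A narrow spread at E18 favours the call, so this likeness is not a separate trait of the rises. The transcripts that fell differed more between the arrays of E18. On these their median distance was -0.66 on replicate 1, -1.04 on replicate 2 and -1.19 on replicate 3, in the same order as the shift of the arrays, whose part in the falls was not tested. On the 3 arrays of E15 the median distance of both groups stayed between -0.14 and 0.09. In 1341 of the 1343 transcripts no array of E18 overlapped with one of E15. The call favours transcripts whose stages lie apart, so this separation is not separate support for it.

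**Figure D2:**
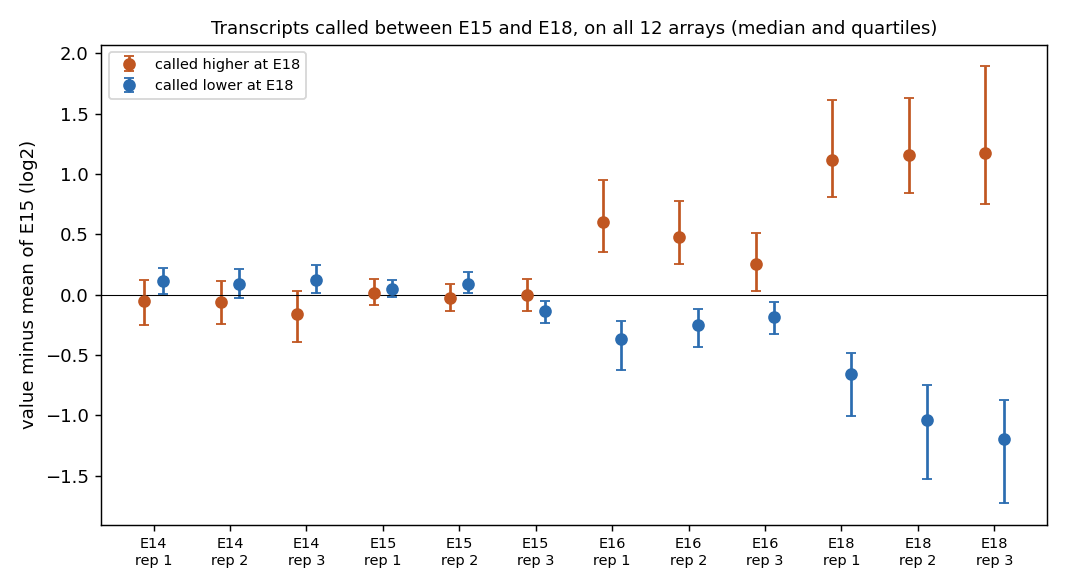
Points give the median, and bars the quartiles, of the value minus the mean of E15 in log2 units for the transcripts called higher (orange, 595) or lower (blue, 748) at E18, on each of the 12 arrays. The medians on the arrays of E18 lie at 1.11 to 1.17 and at -0.66 to -1.19, those on the arrays of E16 lie between these and 0, and those of E14 lie close to 0.

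Arrays that do not overlap were found in far more transcripts than were called. All 3 arrays of E18 were above all 3 of E15 in 1668 transcripts (7.8%) and below them in 3372 (15.8%). The transcripts were sorted by mean level into 3 equal classes of 7130. Of the transcripts whose arrays were lower at E18, 2023 belonged to the highest class, 1195 to the middle and 154 to the lowest. Of those higher at E18, 537 were in the highest class, 612 in the middle and 519 in the lowest. The median change was 0.50 log2 units in the lowest class, -0.34 in the middle and -0.20 in the highest. Calls were spread over these classes with 153 rises and 41 falls in the lowest, 257 rises and 372 falls in the middle, and 185 rises and 335 falls in the highest. In the lowest class the SD had a median of 0.909 at E18 and 0.497 at E15, and in the highest class of 0.26 at E18 and 0.115 at E15.

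Transcripts close to the background were looked at separately. The random-sequence control of the array read between 4.40 and 5.17 over the 12 arrays. It read 5.17, 4.40 and 4.44 on E18 replicates 1, 2 and 3, and 5.06, 5.13 and 4.71 on E15 replicates 1, 2 and 3. A limit set by it was thus lowest on E18 replicates 2 and 3, where dim transcripts read higher. How far this shaped the counts below was not tested. On all 3 arrays of E15, 398 transcripts lay no more than 1 log2 unit above the control of the same array, and 16 of them (4.02%, against 2.78% of all transcripts) were among the 595 that rose. By the arrays alone, 58 of the 398 (14.6%, against 7.8% of all) were above E15 on every array of E18, and 9 were more than 1 log2 unit above the control on all 3 arrays of E18. The 398 were picked by their low values at E15, which by itself favours higher values at E18. These shares are therefore not separate support for rises among dim transcripts. On all 3 arrays of E18, 180 transcripts lay within this distance. In limma as above, 0 of the 748 that fell were among these, where 3.5% of all transcripts fell. By the arrays alone, 6 of these 180 (3.33%, against 15.8% of all) were below all arrays of E15. Of the 180, 153 also lay within this distance on all 3 arrays of E15 and had little room to fall. The low counts of falls among the 180 are therefore not read as a result about dim transcripts. In the lowest class of mean level, the median difference from the mean of E15 was -0.10, 0.42 and 1.19 log2 units on E18 replicates 1, 2 and 3. The sizes of the rises of the 16 are therefore read neither as lower nor as upper bounds.

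The number called depended on single arrays, and on which arrays lent their spread to the test. Leaving out E18 replicate 1 gave 9910 calls and leaving out E18 replicate 2 gave 421, while the fits without E15 replicate 1 or 2 gave 276 and 190. Without any 1 array of E14 or E16, which enter the test only through the spread, it was between 695 and 874. With only the 6 arrays of E18 and E15 in the fit, which leaves 4 residual degrees of freedom instead of 8, 31 transcripts were called (0.145%), and 2699 had an unadjusted p of at most 0.05. The median SD of 0.528 at E18 stood beside 0.14 at E14, 0.216 at E15 and 0.168 at E16, which all enter the shared spread of the 12 arrays. Without E15 replicate 3, E16 replicate 1 and E18 replicates 2 and 3, the 4 arrays with the lowest SD, 1649 were called, 762 of them higher, and 628 of these were also among the 1343. In that setting a single array stands for E18 and is assumed to vary like the other stages.

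**Figure D3:**
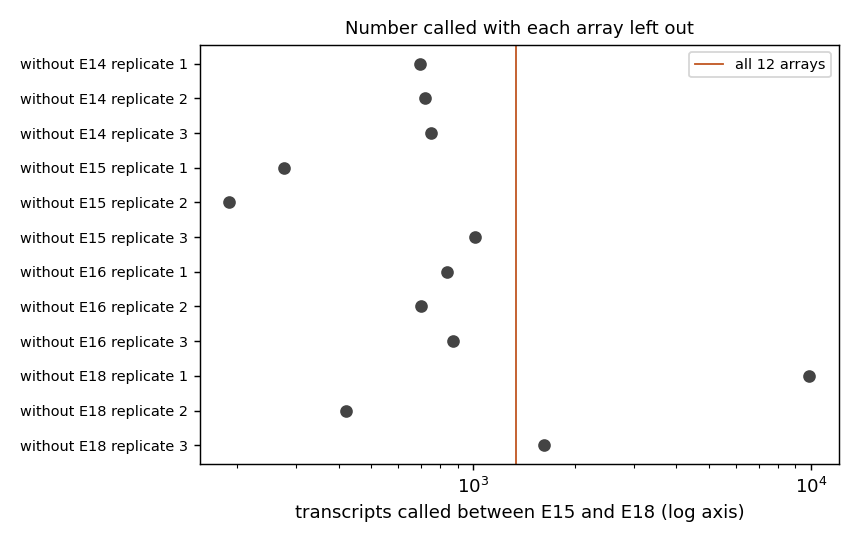
Each point is the number of transcripts called between E18 and E15 (log axis) in the fit without the array named on the left. The line marks the 1343 called with all 12 arrays, and the points run from 190 without E15 replicate 2 to 9910 without E18 replicate 1.

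The 31 transcripts called from the arrays of E18 and E15 alone were all among the 1343. They comprised 22 that rose, by a median of 2.52 log2 units, and 9 that fell, by a median of -2.56. The size of the change ran from 1.81 to 4.59. Their SD at E18 had a median of 0.194 and reached at most 0.50. A small spread on these same arrays favours the call, so this closeness is not a separate trait of the 31.

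COL4A1 and COL4A2, whose products wind together into the type IV collagen found in every basement membrane, are the genes the study goes on from. Their transcripts were taken to be ENSGALT00000027197 and ENSGALT00000027208. These names come from an earlier match to values that the study prints for the genes and not from an annotation, so they are only as sure as that match. The study reports both genes as rising from E14 to E18 on these same arrays. The rises and ranks of the matched transcripts are therefore not separate support for that report. The transcript matched to COL4A1, ENSGALT00000027197, had log2 values of 14.91, 14.89 and 14.77 on the arrays of E18, against 13.93, 13.99 and 13.87 on those of E15. The stages did not overlap, and E18 replicate 3 was the lowest of its stage and E15 replicate 3 of its own. The mean was 14.86 ± 0.08 at E18 and 13.93 ± 0.06 at E15 (SD, n = 3 each), which is 0.93 log2 units or 1.90-fold higher (standard error, SE, 0.12, limma adjusted p = 0.00382).

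The transcript matched to COL4A2, ENSGALT00000027208, had log2 values of 14.20, 14.25 and 14.19 at E18, against 13.38, 13.19 and 13.20 at E15. All arrays of E18 were again above all arrays of E15. The mean was 14.22 ± 0.03 at E18 and 13.26 ± 0.10 at E15 (SD, n = 3 each), which is 0.96 log2 units or 1.94-fold higher (SE 0.12, limma adjusted p = 0.00406). With only the 6 arrays of both stages in the fit, the adjusted p was 0.144 for COL4A1 and 0.139 for COL4A2, above the threshold. Among the 595 transcripts that rose, 417 had a larger change than COL4A1 and 403 a larger one than COL4A2, while by p-value COL4A1 ranked 82 and COL4A2 ranked 86 of all 21390 transcripts. Without the 4 arrays of low SD, a single array is left at E18, so only the size of the change is given. The transcript of COL4A1 was then 0.95 log2 units higher at E18 and that of COL4A2 0.915. In an exact two-sided permutation test of 3 arrays against 3, each gave p = 0.1, the smallest this design allows.

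The largest rise among the transcripts called without overlap was that of ENSGALT00000029580. It had log2 values of 12.18, 11.61 and 9.60 on E18 replicates 1, 2 and 3, against 6.97, 6.52 and 5.27 at E15. The stages did not overlap, and replicate 3 was the lowest in both. The change was 4.87 log2 units, or 29.3-fold (SE 0.65, adjusted p = 0.00499 by limma). The next largest rise, of ENSGALT00000008605, had log2 values of 13.80, 12.94 and 13.25 at E18, against 9.12, 7.23 and 9.29 at E15. Its change was 4.79 log2 units (SE 0.97, adjusted p = 0.0235 by limma), with a wider spread at E15 than at E18.

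The largest fall was that of ENSGALT00000026050, with log2 values of 9.74, 10.19 and 9.40 at E18, against 14.27, 14.57 and 14.27 at E15. No array of one stage came near those of the other, and the change was -4.59 log2 units (SE 0.34, adjusted p = 0.000493 by limma), or 24.1-fold lower at E18. Of the transcripts named by rule it was the one called also from the arrays of E18 and E15 alone (adjusted p = 0.0288 by limma). The next largest fall, of ENSGALT00000020898, had log2 values of 8.08, 8.60 and 6.19 at E18, against 11.23, 11.72 and 10.65 at E15. Replicate 3 was the lowest of both stages, and the change was -3.57 log2 units (SE 0.57, adjusted p = 0.0109 by limma). Without the 4 arrays of low SD, a single array is left at E18, so only the size of the change is given. It was then 5.43 log2 units for ENSGALT00000029580, 5.63 for ENSGALT00000008605, -4.68 for ENSGALT00000026050 and -3.39 for ENSGALT00000020898. The files do not give the genes of these 4 transcripts.

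**Figure D4:**
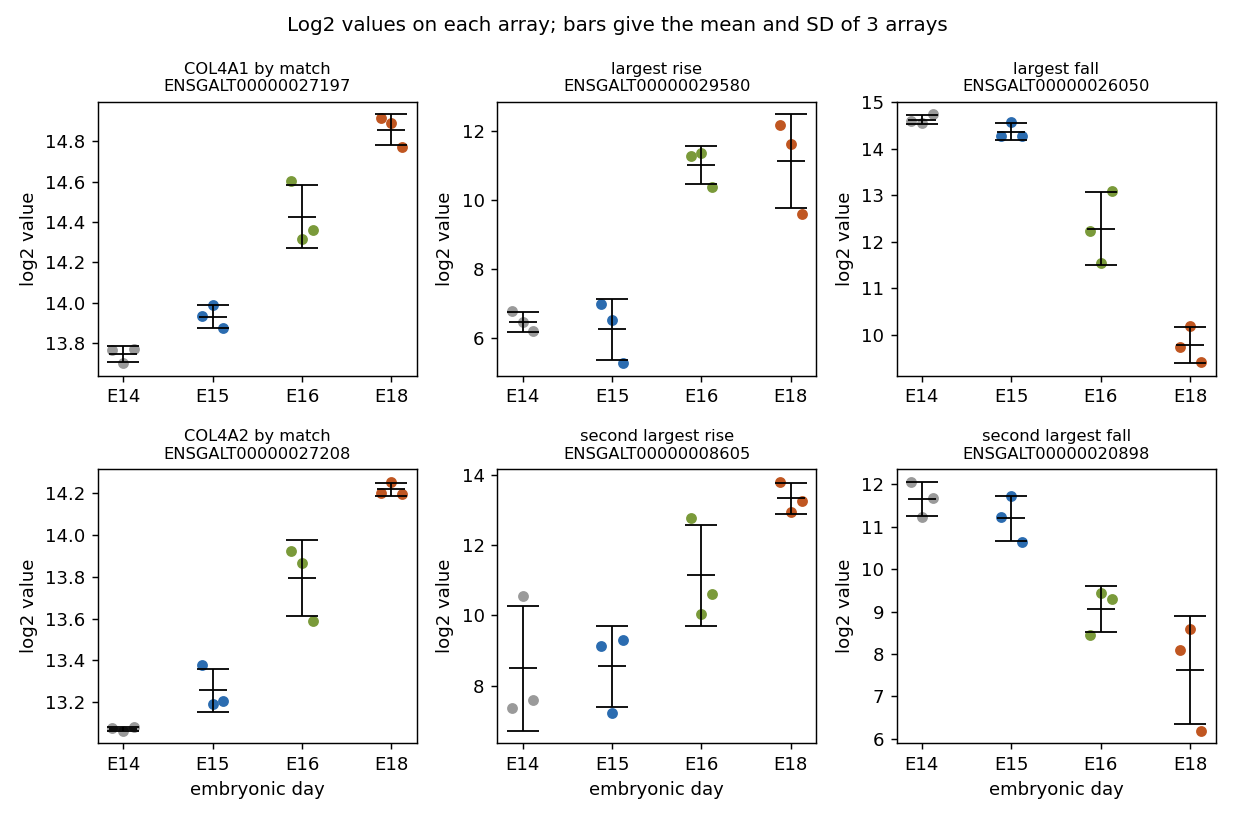
Each point is the log2 value on 1 array, by embryonic day, for COL4A1 and COL4A2 (as matched) and for the 2 largest rises and 2 largest falls between E15 and E18. Horizontal bars give the mean and SD of 3 arrays, the vertical axes differ between panels and do not start at 0, and in all 6 panels the points of E18 lie apart from those of E15.

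The change between E14 and E16, measured on 6 other arrays, ran in the same direction for most of the transcripts called between E15 and E18. Of the 1343 transcripts, 1264 (94.1%) had the same sign in E16 minus E14, where 71.6% of all transcripts did. The share was 93.8% for the transcripts that rose (558 of 595) and 94.4% for those that fell (706 of 748). By class of mean level it was 90.2% of the calls in the lowest, 93.8% in the middle and 96.0% in the highest, against 70.2%, 72.7% and 71.9% of all transcripts in these classes. The transcripts that rose at E18 were higher at E16 than at E14 by a median of 0.55 log2 units, and those that fell were lower by a median of -0.38. Both medians were smaller than those of the longer step from E15 to E18. Transcripts share their arrays and are not independent, so no p is given for these shares.

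The arrays of E16 and E14 were also compared by their separation. The spread within these stages enters the calls of the 12 arrays, so this separation is not independent of the call. In 897 of the 1343 called transcripts (66.8%) the 3 arrays of E16 did not overlap with the 3 of E14 and lay on the side of the E18 change, and in 10 they lay on the opposite side. Over all transcripts, the arrays of E16 were above those of E14 in 2482 (11.6%) and below in 4076 (19.1%), and on the side of the E18 change in 25.9%. The E16 arrays did not contribute equally. With each array of E16 set alone against the mean of E14, the same sign was found in 96.3% of the called transcripts on replicate 1, which has the lowest SD of its stage, in 92.5% on replicate 2 and in 87.1% on replicate 3.

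The shares were also computed without the arrays of low SD, which enter both changes. Without E16 replicate 1, 92.0% of the calls and 65.7% of all transcripts had the same sign. Without all 4 arrays of low SD it was 89.0% of the 1649 calls and 69.0% of all transcripts. Over the 31 calls that no array of E14 or E16 had entered, 28 had the same sign (90.3%, against 71.6% of all transcripts). In 26 the arrays of E16 and E14 did not overlap and lay on the same side, which held for 25.9% of all transcripts. All of the 31 changed by at least 1.81 log2 units between E15 and E18. The correlation between both changes across the 21390 transcripts, given as a description, was 0.584 with all arrays, 0.368 without E16 replicate 1 alone and 0.344 without the 4 arrays of low SD.

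**Figure D5:**
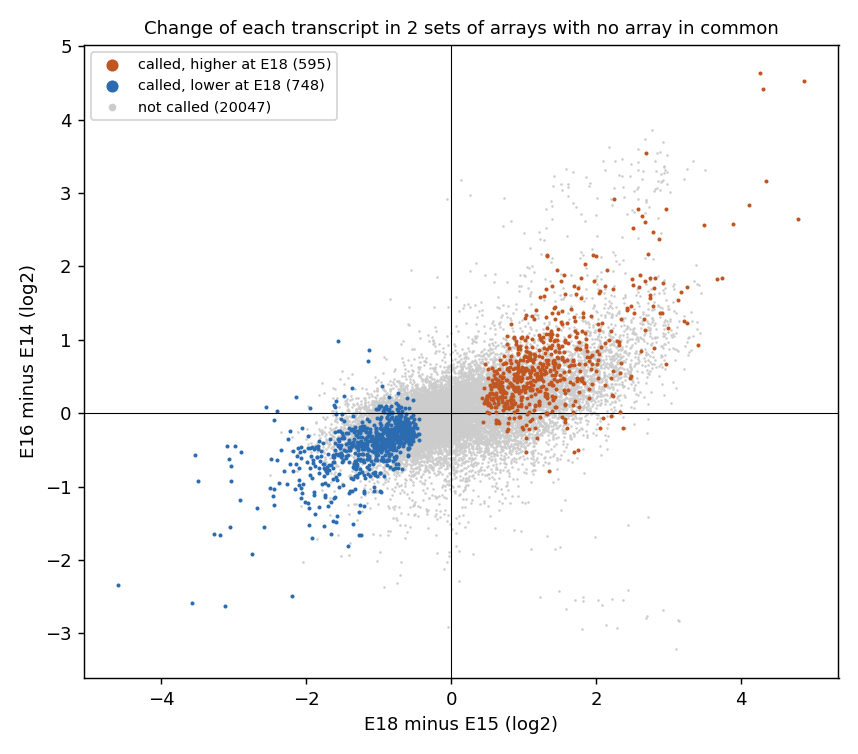
Each point is a transcript, with its change from E15 to E18 (x axis) and from E14 to E16 (y axis) in log2 units. Of the points called higher at E18 (orange, 595), 558 lie above the horizontal line at 0, and of those called lower (blue, 748), 706 lie below it. Transcripts not called (grey) lie on all sides of 0, and 70.1% of them had the same sign in both changes.

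The size of both changes went together among the called transcripts. For rises of under 1 log2 unit the median of E16 minus E14 was 0.35, for rises of 1 to 2 it was 0.63, for rises of 2 to 3 it was 1.28 and for the 16 rises of 3 or more it was 2.20. For falls in the same classes the medians were -0.28, -0.49, -0.75 and -1.24. All 16 rises and all 12 falls of 3 or more had the same sign in both sets of arrays. In 56 of the called transcripts the change from E14 to E16 was in the same direction and larger than that from E15 to E18.

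For all 6 transcripts named above, E16 minus E14 had the sign of E18 minus E15. ENSGALT00000029580 was at 11.26, 11.37 and 10.37 at E16, against 6.77, 6.45 and 6.20 at E14, a change of 4.53 log2 units (SE 0.30, adjusted p = 0.0454 by limma on these 6 arrays). It was the one of the 6 to pass the threshold there, and its E16 and E18 values overlapped. The transcript matched to COL4A1, ENSGALT00000027197, was at 14.60, 14.32 and 14.36 at E16, against 13.77, 13.70 and 13.77 at E14, and was 0.68 log2 units higher (SE 0.10, adjusted p = 0.0576 by limma). That matched to COL4A2, ENSGALT00000027208, was at 13.92, 13.87 and 13.59 at E16, against 13.08, 13.06 and 13.08 at E14, and was 0.72 log2 units higher (SE 0.11, adjusted p = 0.0576 by limma). The arrays of E16 and E14 did not overlap in either, and neither passed the threshold of 0.05.

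The transcripts of both falls were lower on all arrays of E16 than on those of E14, above the threshold in the test. ENSGALT00000026050 was at 12.22, 11.54 and 13.09 at E16, against 14.60, 14.54 and 14.74 at E14, a change of -2.35 log2 units (adjusted p = 0.0591 by limma), and all its E16 values lay between those of E15 and E18. ENSGALT00000020898 was at 8.45, 9.45 and 9.29 at E16, against 12.05, 11.24 and 11.67 at E14, a change of -2.59 log2 units (adjusted p = 0.0527 by limma). ENSGALT00000008605 was at 12.78, 10.05 and 10.60 at E16, against 7.35, 10.55 and 7.58 at E14. E14 replicate 2 lay above E16 replicate 2, so that these stages overlapped, and the adjusted p was 0.235 by limma.

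Tested on the arrays of E16 and E14 alone, 54 transcripts were called between these stages (0.252%), 30 of them higher at E16 and 24 lower, while 4704 had an unadjusted p of at most 0.05. Of the 54, 19 were among the 1343 called between E15 and E18. This is 35.2% of the smaller list, against 6.28% of all transcripts, and 1.41% of the larger. The spread within E14 and E16 enters both lists, so a narrow spread there favours a call in each and the overlap is not independent. Of the 31 called from the arrays of E18 and E15 alone, 2 were among the 54, against 0.252% of all transcripts. All 19 had the same sign in both changes. Of all 54, 44 had the same sign, these 19 included, and 10 the opposite one, where 71.6% of all transcripts had the same sign. These 10 changed by a median size of 1.13 log2 units between E14 and E16 and of 0.26 between E15 and E18.

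The levels of the called transcripts at the stage in between were described as well. In 377 of the 1343 (28.1%) the arrays of E16 lay wholly between those of E15 and E18, where this order was found in 2.49% of all transcripts and in 10.6% of the 5040 whose arrays of E18 and E15 do not overlap. The order needs these stages apart, which nearly all calls fulfil, and a narrow spread favours both the order and the call. For a further 656 (48.8%, against 20.7% of all transcripts), E18 was apart from E16 on the side of the change, but E16 was not so from E15. For 245 (18.2%, against 8.92% of all), E16 was apart from E15 on that side, but E18 was not so from E16. Stages not apart on that side either overlapped or lay apart the other way, and these were not counted separately. Among the rises, 146 had all 3 stages apart in order, 263 had only E18 apart from E16 on that side and 160 had only E16 apart from E15. Among the falls the numbers were 231, 393 and 85. The median of E16 minus E15 was 0.44 for the rises and -0.26 for the falls, and the median of E18 minus E16 was 0.65 for the rises and -0.71 for the falls. These steps share the arrays of E16 with each other and those of E15 and E18 with the calls, and they were not tested.

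Whether the change from E15 to E18 differed in size from that between E14 and E16 was tested in the fit of 12 arrays, a comparison added after the values were seen. It was called for 1 transcript (0.00468%), while 1032 had an unadjusted p of at most 0.05. This transcript, ENSGALT00000008280, is named because it is the single one and was chosen after its values were seen. It had log2 values of 13.14, 12.93 and 12.80 at E18, against 10.84, 10.48 and 10.42 at E15, a rise of 2.38 (SE 0.18, adjusted p = 0.000493 by limma). At E16 it was at 10.61, 10.26 and 10.33, against 10.54, 10.84 and 10.42 at E14, a difference of -0.20 (SE 0.16, adjusted p = 0.483 by limma). The 2 changes differed by 2.58 log2 units (SE 0.25, adjusted p = 0.0329 by limma), and the arrays of E18 stood apart from those of E14, E15 and E16. The size of this difference stayed between 2.42 and 2.90 in 23 other settings, but it passed the threshold in 9 of them and not in 14. It was lost in 11 of the 12 fits with 1 array left out (adjusted p up to 0.211 by limma; it was kept without E18 replicate 1), without the 4 arrays of low SD and with the replicate block. For the 79 called transcripts with opposite signs, and for the 6 transcripts named by rule, the difference did not otherwise pass the threshold.

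Some transcripts differed widely within a stage. The 3 arrays of E18 spanned at least 3 log2 units in 2170 transcripts and those of E15 in 717, with 642 transcripts in both sets. E15 replicate 3 was at least 16-fold above both other arrays of its stage in 241 transcripts, and E18 replicate 1 was at least 16-fold below both others in 146. A spread of this size nearly precludes a call, so these transcripts were not open to the test between stages.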

How the data were processed

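Total RNA of whole chick lung was copied into double-stranded cDNA, which was labelled and hybridised to custom NimbleGen arrays, 1 array per sample and 3 per stage. The authors deposited log2 values made by Robust Multi-array Analysis (RMA), in which background correction, a common distribution for all arrays and a summary over the probes of each transcript are applied in turn. Background correction and summary could not be changed here. The software version, the Ensembl release and the number of probes per transcript are not given in the sources used here.

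Tests on the deposited log2 values used limma 3.58.1 (R 4.3.3), and plots were drawn with Python 3.11.15 and matplotlib 3.10.9. A mean per stage was fitted to 12 arrays, the contrast of E18 minus E15 was tested with moderated variances, and p-values were adjusted by Benjamini-Hochberg over 21390 transcripts. The control row was left out. E16 minus E14 was tested on its own 6 arrays. The fit was tested on simulated data, with independent values and the same SD for a transcript at all stages. These data held neither the shift of single arrays nor the wider spread at E18. They therefore do not bear on how the number called depends on the arrays. The number of arrays limits the precision.

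Named by rule were the transcripts matched to COL4A1 and COL4A2, and the 2 largest rises and falls among calls whose arrays do not overlap. The lists and rules were chosen with earlier results of these data known. Marker lists were not used, since 0 transcripts were paired with gene symbols.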

Additional observations from a re-analysis of the deposited data

How the results depend on the processing

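Values are for E18 against E15 unless stated. The number called, 1343 with 44.3% higher at E18, was 2251 with 59.1% higher after cyclic loess and 2032 with 32.4% higher without the 7130 transcripts of lowest mean level. It was 16052 with array weights, 705 with the replicate number as a block, 31 with only the 6 arrays of both stages, 203 at an adjusted p of at most 0.01, 6393 without adjustment and 752 with a log2 change of at least 1. The share higher was also 59.3% of 1058 with array SD as a covariate, 71.0% with only the 6 arrays, 62.1% at 0.01, 54.3% with the replicate block, 35.2% of 1786 with an intensity trend and robust variances and 35.2% without adjustment, so that the direction with more calls changed between settings. With 1 array left out the number ran from 190 to 9910. The share of calls with the same sign from E14 to E16 was 94.1% (all transcripts 71.6%). It was 78.9% (73.3%) with array weights, 89.3% without adjustment and 89.0% without the 4 arrays of low SD. With 1 array left out it ran from 81.0% (69.0%), without E18 replicate 1, to 96.4%. Other settings gave 90.3% to 95.6%. The median change of all transcripts, -0.12, was 0.011 after cyclic loess, a change of sign, and -0.25 without the lowest class of mean level. With 1 array left out it was -0.20 to -0.05. The number whose arrays do not overlap, 5040, was 17548 without the 4 arrays of low SD, where fewer arrays have to be apart, and between 5646 and 12760 with 1 array of either stage left out. The number called both here and between E14 and E16, 19, was 58 after cyclic loess, 7 after quantile normalization, 393 without the lowest class, 42 with array weights, 2 with only the 6 arrays, 8 at 0.01, 29 without adjustment, 0 without the 4 arrays of low SD, and between 0 and 28 with 1 array left out. The number for which the 2 changes differed, 1, was 2 after median centring, 3 after cyclic loess, after quantile normalization and without the lowest class, 9627 with array weights, 7 with array SD as a covariate, 1032 without adjustment, 0 with the replicate block, at 0.01 and without the 4 arrays of low SD, and between 0 and 525 with 1 array left out, being 525 without E18 replicate 1, 1 without E16 replicate 2 and 0 in the other 10. Except where given, the cause of these differences was not tested.

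Whether the replicate numbers pair the samples could not be decided. Deviations from the stage mean correlated at 0.534, -0.166 and 0.685 between E18 and E15 arrays of the same number, and E18 replicate 1 correlated best with E15 replicate 2. With the replicate block, 661 of 705 calls were among the 1343.

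The named transcripts kept their direction in the 25 settings, or 24 for ENSGALT00000029580, which is not in the fit without the lowest class. ENSGALT00000026050 passed the threshold in all 25. ENSGALT00000027197, ENSGALT00000027208 and ENSGALT00000029580 lost it with only the 6 arrays of both stages, and ENSGALT00000027197 and ENSGALT00000027208 also with a log2 change of at least 1, at 0.93 and 0.96. The call was lost for ENSGALT00000020898 in 3 settings and ENSGALT00000008605 in 8. The covariate of array SD, the arrays of low SD left out and the difference of the changes were chosen after the data were seen.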
